A study of Mus musculus with 4 samples.

Results

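Actb, Actg1 and Vim are 3 genes of the cytoskeleton, and they were followed here from their cleavage positions to the places where CstF64 was crosslinked on their RNA. They were chosen by name, and their reads were taken from fixed ranges of the mm9 build: chromosome 5 from 143664000 to 143669000 on the minus strand for Actb, chromosome 11 from 120206500 to 120210500 on the minus strand for Actg1, and chromosome 2 from 13495500 to 13505500 on the plus strand for Vim. Together the 3 genes held 4867 of 6738355 CU5T45 reads (0.0722%) and 2263 of 3482826 oligo(dT)10-25 reads (0.0650%), against 56206 clusters of cleavage positions of 3 or more reads in the whole series. The names rest on these ranges, since an annotation of mm9 was not used here.

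Actin filaments and intermediate filaments carry much of the shape and movement of a cell. Actb and Actg1 encode β-actin and γ-actin, the cytoplasmic actins that polymerise into filaments in nearly all cells, and actin mRNAs are known for many processed pseudogene copies in mammalian genomes. Vim encodes vimentin, the intermediate filament protein of mesenchymal cells, which proliferating myoblasts also make. The 3′ end of such an mRNA is made by cleavage downstream of a poly(A) signal, most often AAUAAA, followed by addition of the poly(A) tail. CstF64 is the subunit of the cleavage stimulation factor that binds U- and GU-rich RNA near the cleavage site.

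Total RNA pooled from 11 mouse cell lines, sold as a mix, was mapped by 3'READS, which captures RNA fragments that carry a poly(A) stretch and counts reads by the position where the RNA ends. One library was captured with the CU5T45 oligo, which carries 5 U and 45 T and was combined with stringent washing and release by RNase H. The other was captured with oligo(dT)10-25 beads, which carry T stretches of 10 to 25 nt, as in regular poly(A) selection. The CLIP-seq libraries, labelled replicates 1 and 2, hold RNA fragments crosslinked by UV light to CstF64 in C2C12, a line of mouse myoblasts, kept proliferating. The mix is a pool and C2C12 is 1 line, so the amount of each RNA in the C2C12 cells was not measured by the 3'READS libraries. Values of markers of the cell lines were not analysed here.

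There was 1 library per oligo, so there is no replicate error, and each 95% interval for the 3'READS libraries covers counting error only. PCR copies are not independent molecules, so these intervals are too narrow. The CLIP files held 1101047 and 1352122 lines, each a distinct alignment, of which the 3 genes took 928 and 1071. The CLIP replicates are near copies of each other. Of the lines of replicate 1 shorter than 50 nt, 90.8% were also in replicate 2 over the whole series, and 89.1% at Actb, 88.4% at Actg1 and 92.4% at Vim. Of such lines of replicate 2, which has more lines, 77.3% were also in replicate 1. That share was 74.3% at Actb, 77.6% at Actg1 and 84.4% at Vim. Because the replicates share most of their distinct alignments, they are counted here as 1 sample, with both values given.

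The poly(A) signal near the end of each mRNA is given first, because it marks the annotated 3′ end of the named gene. These are stretches of the GENCODE vM21 transcripts of the GRCm38 build, read from the 5′ to the 3′ side, with the AATAAA signal in capitals. They hold up to 30 nt each, so those of Actb and Actg1 stop short of the annotated end, where 26 and 17 nt follow the signal.
Actb: ttgagaccAATAAAagtgcacaccttacct
Actg1: tgtaaagaAATAAAagtgctgcagtaactg
Vim: actgcttcAATAAAtcttcaaaaatac
The signal starts 32 nt before the annotated end in the Actb transcript, 23 nt before it in that of Actg1 and 19 nt before it in that of Vim. AATAAA was searched on the transcript strand alone, and 45.4% of 47652 coding transcripts of at least 700 nt hold it in their last 40 nt. The last exon is 827 nt long in Actb and 844 nt in Actg1, and 354 nt in Vim.

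The first comparison asks how much of each mRNA either oligo captured. Actb was by far the most abundant of the 3, Vim was intermediate, and Actg1 was almost absent from both libraries. Reads are counted at the end of the RNA, whatever its length, so these levels are not divided by gene length. They are in counts per 1e6 reads of the library (CPM). Actb had 4587 reads in the CU5T45 library, which is 681 CPM (661 to 701), and 2069 reads in the oligo(dT)10-25 library, which is 594 CPM (569 to 620). Vim had 276 CU5T45 reads, or 41.0 CPM (36.3 to 46.1), and 191 oligo(dT)10-25 reads, or 54.8 CPM (47.3 to 63.2). Actg1 had 4 CU5T45 reads, or 0.594 CPM (0.162 to 1.52), and 3 oligo(dT)10-25 reads, or 0.861 CPM (0.178 to 2.52). In a pool, fewer cells that make an mRNA and less of it per cell cannot be told apart. For Actg1 the part of read placement in the low count was not tested either, so its count is not read as its mRNA level. The order Actb, Vim, Actg1 was the same in both libraries, and the intervals of the 3 genes do not overlap within either library. The count of Actg1 is no more than the 3 reads that a count of 0 allows in the oligo(dT)10-25 library and 1 read above that in the CU5T45 library.

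The libraries differed little in the share of reads that each gene took. Actb took 1.15 times the oligo(dT)10-25 share in CU5T45 (interval 1.09 to 1.21). Vim took 0.747 times that share (0.619 to 0.903), 1.34-fold lower in CU5T45. For Actg1 the ratio was 0.689 with an interval of 0.117 to 4.70, which includes 1, and 7 reads could not show a difference of this size. As described below, these reads lie at both ends of the range and cannot all belong to the annotated gene. The Actg1 ratio, and those of pairs with Actg1, are therefore values of the range and not of the gene alone. The 3 pairs of genes were also compared within each library, where the library total cancels. Actb had 16.6 reads for each Vim read in CU5T45 and 10.8 in oligo(dT)10-25, a ratio of 1.53 (1.26 to 1.87). The ratio of ratios of Actb to Actg1 was 1.66 (0.243 to 9.84) and that of Vim to Actg1 was 1.08 (0.157 to 6.48), and both intervals include 1. Because 1 library stands for each oligo, these values compare the libraries and not the oligos.

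Against the series, the shifts of Actb and Vim were ordinary in size. Of the 3 clusters of these genes with 30 or more reads (the main clusters of Actb and Vim, and a smaller Actb cluster described next), 0 were at least 2-fold higher in CU5T45 with an interval above 1, while 11.1% of all 16684 such clusters were. At least 2-fold lower was 1 of the 3, the smaller Actb cluster, against 14.1% of all. That cluster reached 30 reads only through its reads in the library other than CU5T45, so its count as lower is a description. Counted by the interval alone, 1 of the 3 lay above 1, against 27.5% of all. Below 1 lay 2, the main cluster of Vim and again the smaller Actb cluster, against 23.5%. The median ratio of all these clusters was 1.08, and 54.1% of them had a lower ratio than Actb and 28.3% a lower ratio than Vim. Among all clusters by reads, the main cluster of Actb ranked 191 and that of Vim 2968.

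**Figure D1:**
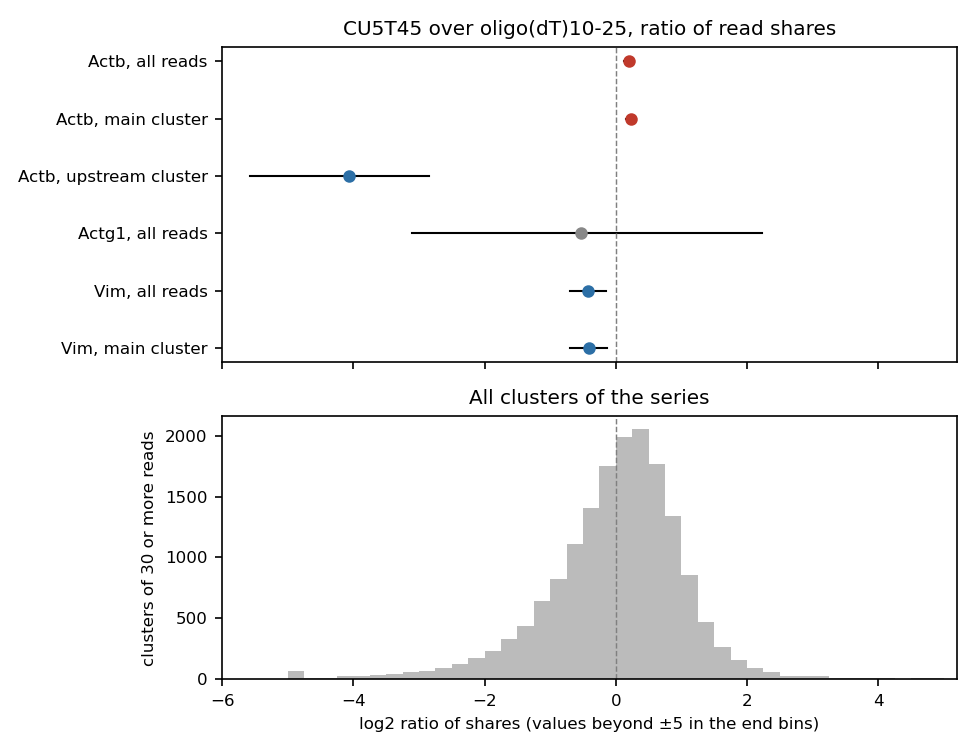
Ratio of read shares, CU5T45 over oligo(dT)10-25, on a log2 axis for the genes and their clusters (upper panel: points with 95% counting intervals, red above 1, blue below 1, grey including 1), over the number of all clusters of 30 or more reads per bin of the same axis (lower panel). Actb lies slightly above equality at 1.15, Vim below it at 0.747, and the Actb upstream cluster far to the left at 0.0596.

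Nearly all Actb RNA ended in 1 cluster that spans 24 nt and 9 positions, from 143664792 to 143664815. Within it, the most used position was 143664795, with 3608 CU5T45 reads and 1699 oligo(dT)10-25 reads. It held 78.7% (77.4 to 79.8) of all Actb reads in CU5T45 and 82.1% (80.4 to 83.7) in oligo(dT)10-25. For 3903 nuclear clusters with 100 or more reads per library, the median share of the top position in its cluster was 75.8% in CU5T45 and 76.1% in oligo(dT)10-25. The top position held 79.1% of the Actb cluster in CU5T45 and 84.7% in oligo(dT)10-25, above both medians. The first base of the deposited positions may be 0 or 1, which leaves each uncertain by 1 nt.

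The 3 minor Actb positions with 30 or more reads were found in both libraries, and 1 of them differed in proportion. Position 143664801, 6 nt upstream of the most used one, had 547 CU5T45 reads and 133 oligo(dT)10-25 reads. That is 11.9% (11.0 to 12.9) of the Actb reads in CU5T45 and 6.43% (5.41 to 7.57) in oligo(dT)10-25. Relative to the most used position it was 1.94 times as frequent in CU5T45 (1.58 to 2.38). Position 143664793, 2 nt downstream, had 357 CU5T45 and 142 oligo(dT)10-25 reads, and its relative frequency differed by 1.18 times (0.963 to 1.46). Position 143664806, 11 nt upstream, had 36 CU5T45 and 20 oligo(dT)10-25 reads, with a ratio of 0.848 (0.476 to 1.55). The intervals of the last 2 include 1, so the unequal use of ends was detectable at 1 of the 3 minor Actb positions with 30 or more reads.

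Vim RNA ended at a pair of adjacent positions. Position 13504451 had 161 CU5T45 reads and 106 oligo(dT)10-25 reads, which is 58.3% (52.3 to 64.2) of the Vim reads in CU5T45 and 55.5% (48.1 to 62.7) in oligo(dT)10-25. The next nucleotide downstream, 13504452, had 92 CU5T45 and 66 oligo(dT)10-25 reads, or 33.3% (27.8 to 39.2) in CU5T45 and 34.6% (27.8 to 41.8) in oligo(dT)10-25. Their proportion did not differ detectably between the libraries, with a ratio of 0.918 (0.604 to 1.40). The whole cluster, from 13504439 to 13504456, spans 18 nt and 7 positions. At Vim positions below the minimum of 30 reads, the libraries differed both ways. Position 13504453 was read 1 time in CU5T45 and 7 times in oligo(dT)10-25, or 0.0947 (0.00207 to 0.754) relative to the most used position. Position 13504454 was read 7 and 4 times, or 1.15 (0.285 to 5.50) on the same scale, and 13504449 was read 5 and 0 times. No share over the series is given for positions this small, so none of them is read as a difference. Of the 4 minor positions of Actb and Vim with 30 or more reads, 1 was at least 1.5-fold higher in CU5T45 relative to its main position and 0 were 1.5-fold lower. Over 9054 such positions of the series the shares were 14.9% and 13.3%, so the 1 of 4 is not read as a result about these genes.

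**Figure D2:**
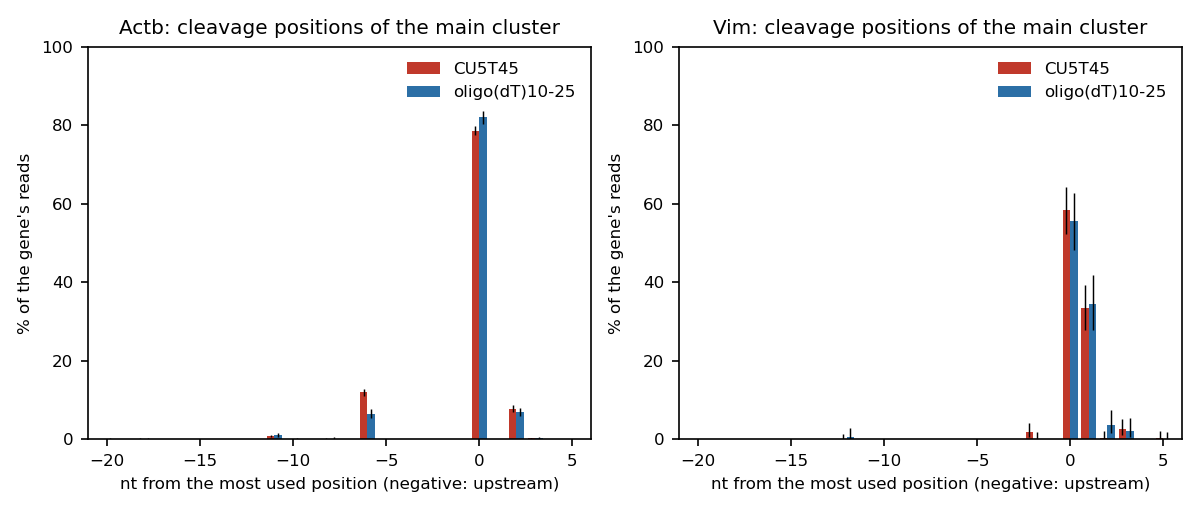
Share of each gene's reads (percent, bars with 95% Clopper-Pearson intervals) at each position of the main cluster, by distance in nt from the most used position, for CU5T45 (red) and oligo(dT)10-25 (blue). Actb has 1 dominant position and a minor one 6 nt upstream that is taller in CU5T45, while Vim is split between a pair of neighbouring positions in both libraries.

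Outside its main cluster, Actb had an upstream cluster that was found mostly with oligo(dT)10-25. Reads outside the main cluster made up 0.567% (0.371 to 0.829) of Actb reads in CU5T45, which is 26 reads, and 3.04% (2.35 to 3.88) in oligo(dT)10-25, which is 63 reads. Of these, 6 CU5T45 reads and 52 oligo(dT)10-25 reads lay in 1 cluster from 143665369 to 143665400, between 574 and 605 nt upstream of the most used position. This cluster took a 16.8-fold lower share in CU5T45 (7.20 to 47.8). It reached the minimum of 30 reads only through its oligo(dT)10-25 reads, so its fold and its rank below are a description. Its 2 largest positions, 143665393 and 143665395, had 0 CU5T45 reads each, against 16 and 22 oligo(dT)10-25 reads. Only 0.803% of all clusters of 30 or more reads had a lower ratio. The other 7 Actb clusters away from the main one held 20 CU5T45 and 11 oligo(dT)10-25 reads in all. The largest of them, with its peak at 143665233, was found by 13 reads in CU5T45 and 6 in oligo(dT)10-25, giving 1.12 times the share (0.397 to 3.59), and the next, at 143664978, had 4 CU5T45 and 2 oligo(dT)10-25 reads.

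The 3′ UTR of the Actb transcript has an A-rich stretch near this distance, printed here because the CU5T45 capture is meant to avoid such stretches. Its A-rich part, in capitals, lies 628 to 608 nt before the end of the transcript and has 16 A among 21 nt.
Actb A-rich stretch: ttgcGCAGAAAAAAAAAAAATAAGAgacaa
The search took runs of 6 A, or 10 nt with 8 A, in the last 700 nt on the transcript strand, which 56.1% of coding transcripts of that length hold. In Actb this was the only such stretch. The distance of the stretch is counted from the annotated end in GRCm38 and that of the reads from the most used position in mm9. These origins may not be the same base, and coordinates were not converted, so distances match only roughly. From the far side of the stretch to 40 nt beyond its near side, counted from the most used Actb position, lay 6 CU5T45 and 52 oligo(dT)10-25 reads. Whether the upstream reads come from capture at this stretch was not tested. The Vim transcript has 2 such stretches, 400 to 391 and 272 to 256 nt before its end, the longer with 11 A among 17 nt. In the windows set in this way from the most used Vim position, 0 CU5T45 and 0 oligo(dT)10-25 reads were found. The stretch of the Actg1 transcript lies 28 to 17 nt before its end, with 10 A among 12 nt, and overlaps its AATAAA signal. Reads around it were not counted.

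**Figure D3:**
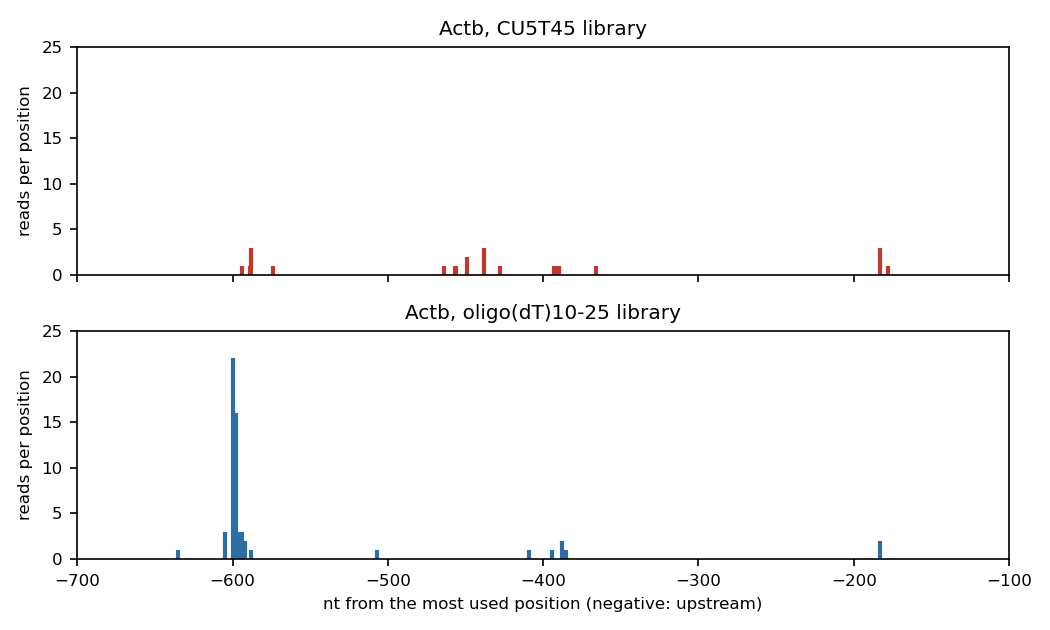
Reads per position between 700 and 100 nt upstream of the most used Actb position, for CU5T45 (upper panel) and oligo(dT)10-25 (lower panel). At 598 and 600 nt upstream CU5T45 had 0 reads, against 16 and 22 oligo(dT)10-25 reads.

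Vim had few reads elsewhere. They made up 3.26% (1.5 to 6.10) of the Vim reads in CU5T45, which is 9 reads, and 3.66% (1.49 to 7.41) in oligo(dT)10-25, which is 7 reads. They fell into 10 clusters, of which 7 had a single read. The largest, at 13504408 and 43 nt upstream of the most used position, had 2 CU5T45 and 3 oligo(dT)10-25 reads. The next 2 were at 13504125 to 13504130, with 2 CU5T45 and 0 oligo(dT)10-25 reads, and at 13502309, with 0 CU5T45 and 2 oligo(dT)10-25 reads. On the opposite strand of the 3 ranges there was 1 CU5T45 read at Actb and 1 at Actg1, and oligo(dT)10-25 had 0.

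Actg1 had no cleavage site that could be called its main one. Its 7 reads lay at 4 positions. In CU5T45, 2 reads lay at 120206852, 1 at 120206998 and 1 at 120210350, and all 3 oligo(dT)10-25 reads lay at 120210341. The last position, the most used of the range, is 3489 nt from the first, while the annotated Actg1 gene spans 2809 nt in RefSeq and its transcript spans 2853 nt in GENCODE. Positions at both ends of the range therefore cannot all belong to the annotated gene. The low count stands beside a close relation to other genes. The coding sequences of Actb and Actg1, without the stop codon, are identical at 997 of 1125 nt (88.6%). Of all words of 35 nt in the Actg1 transcript, 57.0% also occur in transcripts of other genes, 18 of these 28 genes being pseudogenes, against 30.2% in that of Actb and 0.232% in that of Vim. In the last 500 nt of the transcript, however, 0 words of 35 nt were shared for Actg1 and for Vim, and 21.9% for Actb. With words of 72 nt, the length of the 3'READS reads, 54.9% of those in the Actg1 transcript were shared, against 3.08% in that of Actb and 0 in that of Vim, and in the last 500 nt 0 were shared for all 3. Only exact matches among annotated transcripts were counted, not the genome, and the part of read placement in the low Actg1 count was not tested.

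The second comparison asks where CstF64 was crosslinked along these genes. CLIP lines were placed by their midpoint and split at the most used cleavage position into the last 500 nt before it, the rest of the range upstream, and the sequence downstream. The rest holds introns and some sequence outside the gene, so its density is that of a mixture. On both Actb and Vim the last 500 nt had more lines per nt than the rest, while most lines lay in the rest.

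Actb had 307 lines in replicate 1 and 388 in replicate 2. In the last 500 nt there were 56 and 71 lines, in the 3706 nt upstream of it 203 and 256, and downstream of the cleavage position 48 and 61. The last 500 nt thus held 21.6% (16.8 to 27.1) and 21.7% (17.4 to 26.6) of the lines up to the cleavage position. That is 11.2 and 14.2 lines per 100 nt, against 5.48 and 6.91 in the rest, a density ratio of 2.04 (1.49 to 2.76) and 2.06 (1.56 to 2.68).

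Vim had 575 and 629 lines in replicates 1 and 2. Per 1e6 lines of the library, Vim had 522 and 465, Actb 279 and 287, and Actg1 41.8 and 39.9, but the ranges are of unequal length and these rates are not divided by it. In the last 500 nt of Vim there were 70 and 75 lines, in the 8452 nt upstream of it 468 and 509, and downstream 37 and 45. The last 500 nt held 13.0% (10.3 to 16.2) and 12.8% (10.2 to 15.8) of the lines up to the cleavage position. That is 14 and 15 lines per 100 nt, against 5.54 and 6.02 in the rest, a density ratio of 2.53 (1.94 to 3.26) and 2.49 (1.93 to 3.18). Shares of lines are not comparable between the genes, since the rest of the range is longer in Vim, and the intervals of their density ratios overlap.

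The last 500 nt was compared with the 500 nt before it, which can be measured at every site. In Vim it had 70 lines against 9 in replicate 1 and 75 against 9 in replicate 2, or 88.6% (79.5 to 94.7) and 89.3% (80.6 to 95) of both windows. In Actb it had 56 against 28 and 71 against 36, or 66.7% (55.5 to 76.6) and 66.4% (56.6 to 75.2). Over the 769 and 1040 nuclear clusters with 100 or more reads and 20 or more lines in these windows, the median was 74.1% and 73.5%, with quartiles of 48.4 and 90.0% in replicate 1 and of 50.0 and 89.1% in replicate 2. Actb lies between the quartiles in both, and Vim close to the upper one. The annotated last exon is 354 nt long in Vim and 827 nt in Actb. The earlier 500 nt therefore lies outside it in Vim and largely within it in Actb, so the shares of Actb and Vim compare unlike sequence. The transcripts also differ in words of 35 nt, about the length of a CLIP line, that occur in other genes. These are 30.2% of the Actb words and 21.9% of those in its last 500 nt, against 0.232% and 0 in Vim. The part of read placement in the Actb line counts was not tested. In number of lines Actb and Vim stood high: of 8618 nuclear clusters with 100 or more reads, 99.4% and 99.5% had fewer lines in the last 500 nt than Actb, and 99.6% and 99.5% fewer than Vim. The median cluster had 2 lines there. These clusters come from the pool of cell lines, and the amount of each RNA in C2C12 was not measured. The ranks are therefore not adjusted for it.

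The lines were gathered in a few places and were not spread evenly. In Actb the densest 100 nt lay 2299 to 2200 nt upstream of the cleavage position, with 64 and 81 lines in the replicates, 20.8% and 20.9% of all lines of the range. The next held the last 100 nt before the cleavage position, with 35 and 40 lines, and then 1099 to 1000 nt upstream, with 24 and 32. In Vim the densest 100 nt lay far upstream, 8099 to 8000 nt from the cleavage position, with 90 and 91 lines, 15.7% and 14.5% of the range. The stretch 2799 to 2700 nt upstream had 47 and 55 lines, and that 4199 to 4100 nt upstream 33 and 35. Of the stretches of 100 nt, 16 of 51 in Actb and 37 of 101 in Vim had 0 lines in both replicates. The part of read placement in these empty stretches was not tested. The farthest line lay 3572 and 3575 nt upstream in Actb, whose annotated gene spans 3640 nt in the GENCODE transcript and 4862 nt in RefSeq, and 8488 nt upstream in Vim in both replicates, whose gene spans 8875 nt in the GENCODE transcript and 8516 nt in RefSeq. In Actb the extent is close to the GENCODE span. The Actb range holds fewer nt upstream of the cleavage position than the RefSeq span, so lines that far could not be counted. In Vim the extent is closer to the RefSeq span than to the GENCODE one.

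**Figure D4:**
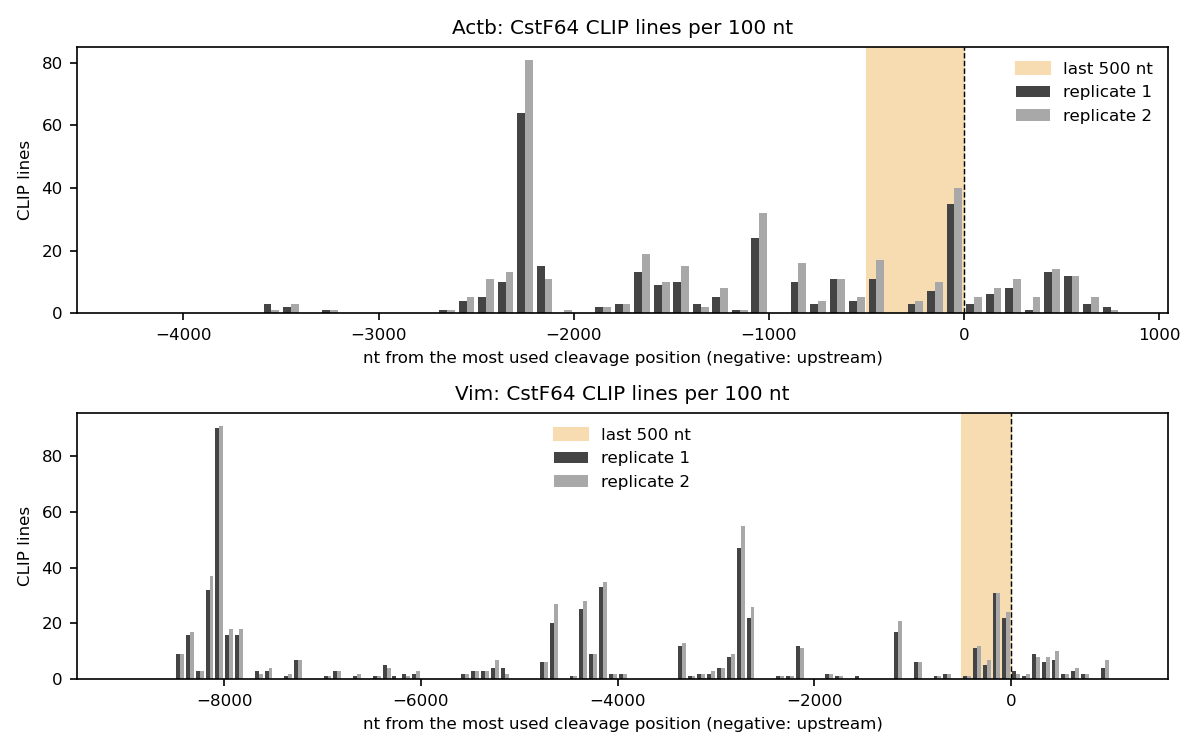
CstF64 CLIP lines per 100 nt along Actb (upper panel) and Vim (lower panel), by distance in nt from the most used cleavage position, for replicates 1 (dark) and 2 (light), with the last 500 nt shaded. The highest bars lie 2299 to 2200 nt upstream in Actb and 8099 to 8000 nt upstream in Vim, outside the shaded window.

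Close to the cleavage position the lines lay on its upstream side, and the genes differed in where. In Actb the 20 nt from 39 to 20 nt upstream had 18 lines in replicate 1 and 22 in replicate 2, and the 20 nt next to the site 7 and 6. In Vim there were separate groups, with 24 and 24 lines from 159 to 140 nt upstream and 14 and 14 from 59 to 40 nt upstream, and the 20 nt next to the site had 1 and 1. From the site to 40 nt downstream, Actb had 3 and 4 lines and Vim 2 and 2, against 25 and 28 in Actb and 8 and 8 in Vim over the last 40 nt. Over the 150 and 205 nuclear clusters with 20 or more lines in these windows of 40 nt, the upstream side held a median of 61.9% and 64.3%. Vim has fewer than 20 lines there, so this median is a background for Actb only. More lines lay farther downstream. Beyond 200 nt from the site Actb had 39 and 48 lines and Vim 33 and 41. The opposite strand held 0 lines in the Actb range in both replicates and 1 and 1 in the Vim range.

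**Figure D5:**
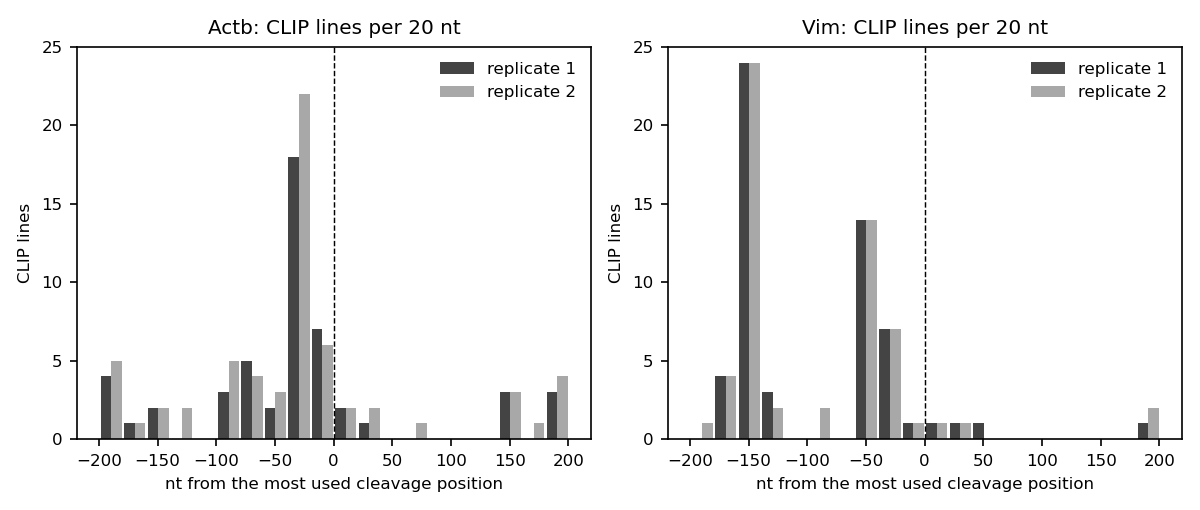
CstF64 CLIP lines per 20 nt within 200 nt of the most used cleavage position (dashed line) of Actb and Vim, for replicates 1 (dark) and 2 (light). Lines peak 39 to 20 nt upstream in Actb, with 18 and 22 lines, and 159 to 140 nt upstream in Vim, with 24 and 24, and few lie within 100 nt downstream.

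Actg1 had 46 lines in replicate 1 and 54 in replicate 2, and nearly all of them lay at the downstream end of its range. Its most used 3'READS position, with 3 reads, lies at the other end of the range, so all lines fell downstream of it and the last 500 nt before it held 0. Midpoints within 50 nt of each other formed 5 groups. The largest, from 120206966 to 120207019, had 25 and 27 lines and contains position 120206998, which had 1 CU5T45 read. The group from 120206690 to 120206903 had 15 and 17 lines and contains position 120206852, which had 2 CU5T45 reads. The 1799 nt upstream of 120207019 had 0 lines in both replicates, and beyond that the range held 2 and 2 lines in all. With 120206998 as the site, chosen after seeing the data, the last 500 nt held 1 and 1 lines, and with 120206852 it held 27 and 30. Actg1 thus lacked the lines over the gene body that Actb and Vim had, and as in the 3'READS libraries the part of read placement was not tested.

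The sites most like Actb and Vim were sought over the 4 libraries, by the Euclidean distance of log2(CPM + 1) with CLIP lines in the last 500 nt per 1e6 lines as the CLIP value. Nearest to Actb was a site on the plus strand of chromosome 10 at 80645242, at a distance of 0.591, with 634 CPM in CU5T45 and 536 CPM in oligo(dT)10-25 and 80 and 86 CLIP lines. The next were chromosome 5 at 104870068, plus strand, at 0.940, and chromosome 11 at 29642915, plus strand, at 0.949. Nearest to Vim was a site on the plus strand of chromosome 10 at 81028908, at 0.510, with 44.8 CPM in CU5T45 and 67.2 CPM in oligo(dT)10-25 and 79 and 92 lines, followed by chromosome 9 at 96233073, minus strand, at 0.637, and chromosome 3 at 90418336, plus strand, at 0.704. These likenesses are over 4 libraries, of which the CLIP replicates are near copies, and are a description.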

How the data were processed

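The deposited files hold whole-number read counts per line, made by the authors; no normalization is stated per the labels. The submitters' processing notes name mm9, Bowtie and Novoalign, with no roles. Read filters, including any for untemplated A, are not given in the sources used here. A 3'READS line is 1 position with its strand, and a CLIP line 1 distinct alignment, of median length 35 and 36 nt in replicates 1 and 2.

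Members and lists were chosen with earlier results of these data known. Cleavage positions from either oligo were joined into 1 cluster on a strand where gaps were 24 nt or less. Ratios of shares have exact conditional binomial 95% intervals and shares Clopper-Pearson ones. Ratios of ratios have exact conditional intervals for the members, and for all minor positions of 30 or more reads (main position 100 or more) a log-normal one with 0.5 added. With 1 library per oligo, and CLIP replicates that count as 1 sample, no p-value was computed. The ratio was tested on simulated data. The simulated counts were independent, unlike PCR copies, so the simulation does not show whether the intervals are wide enough for these libraries. A count of 0 allows 3 reads, 0.445 CPM in CU5T45 and 0.861 CPM in oligo(dT)10-25.

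The rule for named items was all 3 genes, the most used position and the 3 next largest clusters of each, and clusters of 30 or more reads whose interval excludes 1. Minor positions, CLIP stretches and Actg1 groups were named after their values were seen. The list of other cytoskeletal genes was not measured, because the annotation given is of GRCm38 and coordinates were not converted. As alternatives, the gap between joined positions, the minimum of reads, the depth (by thinning), the counted unit, and the CLIP window and placement were changed, and each CLIP replicate was left out. Intervals were computed with scipy 1.17.1, tables were handled in pandas 2.3.3 under Python 3.11.15, and plots were drawn in matplotlib 3.10.9.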

Additional observations from a re-analysis of the deposited data

How the results depend on the processing

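Of 87 values recomputed under alternatives, 70 stayed within the interval of the value reported (for counts, within 1.5 times). Values without a CLIP replicate could only stay within it, because the interval used for CLIP covers those of both replicates. The interval of the Actg1 ratio is so wide that few values could leave it. Counting each position once turned the ratio of shares to 0.766 for Actb and 1.19 for Vim, both with intervals that include 1; this counts positions and not RNA. The ratio for Actg1 ranged from 0.172 (main cluster only) to 2.30 (each position once), always with an interval that includes 1. Counting reads within 2 nt raised the share at the most used Actb position to 86.4% in CU5T45 and 89.0% in oligo(dT)10-25, and the Vim share to 93.8% in CU5T45 and 93.7% in oligo(dT)10-25; taking the main cluster as the total gave 84.7% for Actb in oligo(dT)10-25. Leaving out single reads lowered the share outside the main cluster in CU5T45 to 0.241% for Actb and 0.749% for Vim. A CLIP window of 1000 nt held 32.6% of Actb lines and gave Vim a density ratio of 1.35, and one of 300 nt gave Vim 3.46. For Actg1, other sites (chosen after seeing the data) gave a mean of 28.5 or 1 CLIP lines in the last 500 nt in place of 0. Requiring 100 reads left 921 clusters 2-fold higher and 972 lower in CU5T45 of 8652 tested, and a minimum of 3 reads gave 5387 lower of 56206 tested, against 1853 and 2356 of 16684 reported. Without either CLIP replicate the share in the last 500 nt was 21.6 to 21.7% for Actb and 12.8 to 13.0% for Vim, and the density ratio 2.04 to 2.06 for Actb and 2.49 to 2.53 for Vim; since the replicates are near copies, this says little about stability. No paired analysis was possible because the groups compared have 1 library each. With 7 reads, Actg1 has wide intervals between the oligos, and the cause of its low count was not tested.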
